A study of Homo sapiens with 12 samples.

Results

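The camptothecin response common to both genotypes was taken from all 12 libraries of the series, 3 in each of 4 groups. The cells were CCRF-CEM, a human leukemia line that the labels call a T lymphoblast. The parent line, labelled wild-type, and a line labelled SLFN11 gene knockout were each given 100 nM camptothecin for 4 h or DMSO, the solvent. For each gene, the change with camptothecin was measured in the parent line and in the knockout line, and the mean of both changes was tested. A gene was counted as common where this mean and each of the 2 changes passed the test in the same direction. Of 23546 genes tested on exon reads, 1127 rose and 1754 fell in both genotypes. No source used here tells how SLFN11 was knocked out, if the knockout line grew from 1 clone, or if the 3 libraries of a group are separate cultures. The p-values therefore rest on the spread among these libraries alone, and that spread may be technical.

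Camptothecin traps topoisomerase I (TOP1) on DNA at the moment the enzyme has nicked a strand, and replication forks that run into the trapped complex break. TOP1 also relaxes the supercoils that build up around a moving RNA polymerase, so the same complexes lie in transcribed genes. SLFN11 is a helicase-like protein recruited to stressed forks, where it blocks further replication, and cells that lack it are known to tolerate TOP1 inhibitors better. A damage checkpoint holds cells with broken forks before mitosis. Genes of the late cell cycle are switched by the DREAM complex, MYBL2 and FOXM1 through a promoter element called CHR. Many promoters of such genes also hold a separate element, the CCAAT box.

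Exon reads per library ranged from 42439957 to 63606344, apart from parent DMSO replicate 1 with 135592046, and introns took 26.31% to 33.55% of gene reads. Parent DMSO replicate 1 stood apart from the other libraries of its group. The chi-square per degree of freedom of its exon counts against theirs was 152.8 and 193.4, while every other pair within a group lay between 5.0 and 18.8. Its title also carries a different number code from the other titles. Counts without it are given beside the results that moved most. SLFN11 itself was still transcribed in the cells labelled knockout, at 85.9 to 91.7 CPM (read counts scaled by library size) against 107.4 to 122.9 CPM in the parent, a count that cannot show a small insertion or deletion. All 17 T-lineage markers checked against the label reached at least 1 CPM. So did 4 of 8 B-lineage, 1 of 10 myeloid, 1 of 8 erythroid, and 1 of 10 epithelial and fibroblast markers. PAX5, MPO, LYZ and DCN were among those below 1 CPM, and MS4A1, HBB and PECAM1 were absent from the deposited counts.

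Camptothecin changed more genes in the parent than in the knockout, and most of what it changed in the knockout it changed the same way in the parent. In the parent 3961 genes rose (16.8% of those tested) and 4017 fell (17.1%), against 1718 (7.3%) and 2184 (9.28%) in the knockout. The test was edgeR's quasi-likelihood test with Benjamini-Hochberg adjustment over all genes tested, called at an adjusted p below 0.05. The 1127 common rises were 4.79% of the genes tested, and made up 28.5% of the parent rises and 65.6% of the knockout rises. The 1754 common falls were 7.45% of the genes tested, and made up 43.7% of the parent falls and 80.3% of the knockout falls. The mean response on its own passed the test for 4440 rises (18.9%) and 4325 falls (18.4%). It kept one sign in both genotypes for 4196 and 4178 of these, although only the parent change passed for 2251 and 1805, only the knockout change for 453 and 310, and neither for 609 and 456.

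The common changes were mostly small. Their median log2 change was 0.53 in the parent and 0.40 in the knockout for rises, and -0.61 and -0.45 for falls, where a log2 change of 1 is a doubling. Both genotypes changed by at least that much for 41 rises and 147 falls. A test of the difference between the responses (knockout minus parent), which passed for 1487 genes (6.32%), called 161 of the common rises, 14.3%, of which 159 were larger in the parent. It called 170 of the common falls, 9.69%, of which 155 were larger in the parent. For 647 rises and 1096 falls the 95% interval of the difference lay wholly within 0.5 log2 units of 0.

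Counts of calls depended on the scale. The main fit scaled libraries by TMM, which sets the bulk of genes to no change, and the median mean response over all genes was 0.025. With library size alone that median was 0.165, and common genes numbered 3131 rises and 1030 falls. Without parent DMSO replicate 1 they numbered 1976 rises and 2463 falls, and without knockout DMSO replicate 1, 2 or 3 there were 685, 737 and 716 common rises.

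**Figure D1:**
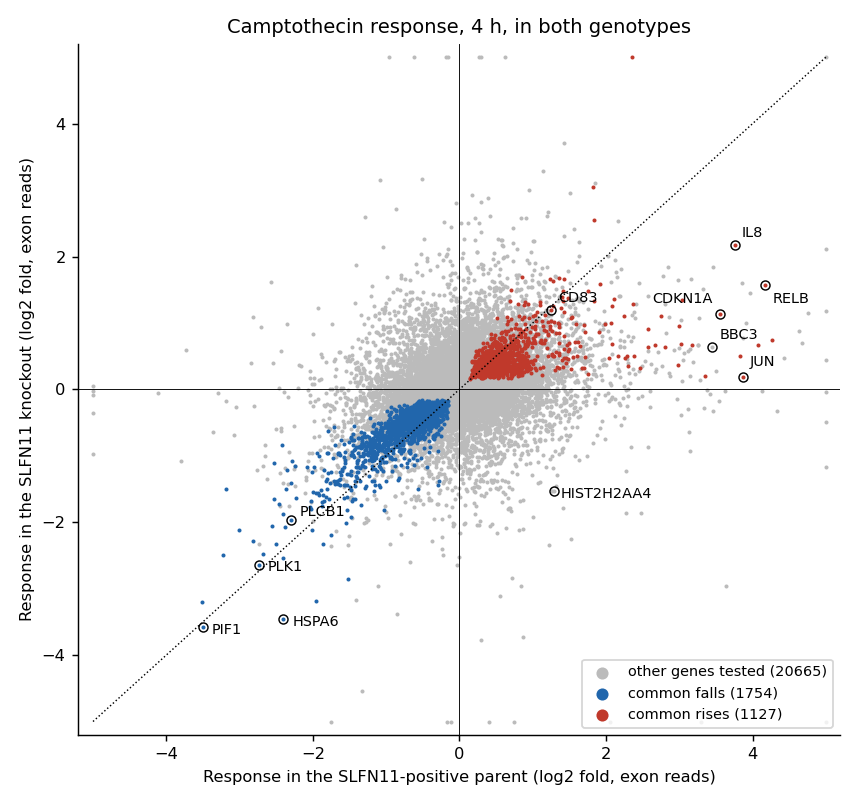
Log2 change with camptothecin in the parent (horizontal axis) and in the knockout (vertical axis) for the 23546 genes tested on exon reads, 1 point per gene, with common rises and common falls coloured and values beyond 5 drawn at the edge. The 1754 common falls lie along the diagonal at lower left, and many rises lie closer to the horizontal axis, where the parent change is the larger.

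**Figure D2:**
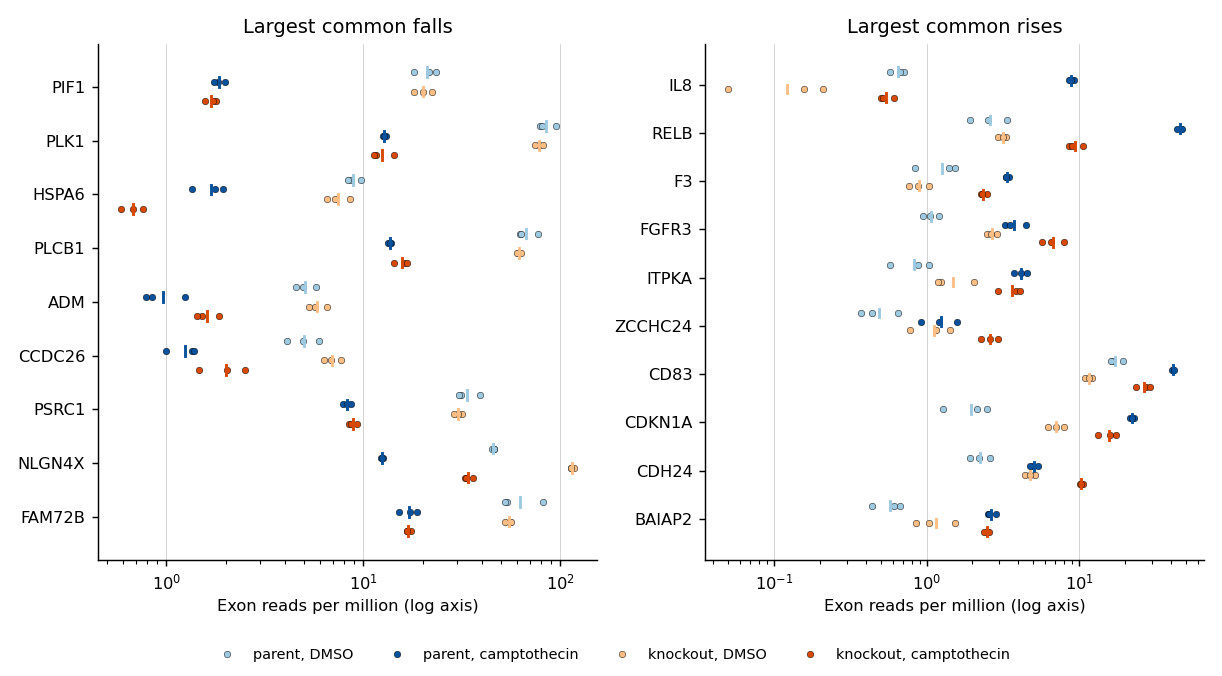
Exon CPM on a log axis in each of the 12 libraries for the strongest common rises and falls, with a short tick at each group mean and values below 0.05 CPM drawn at 0.05 (1 knockout DMSO library of IL8 at 0). In each gene shown, the camptothecin libraries do not overlap the DMSO libraries of the same genotype.

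The steepest fall in both lines was that of PIF1 (hg19 chr15:65107830-65117866), a DNA helicase whose transcript peaks late in the cell cycle. PIF1 stood at 18.1, 21.6 and 23.5 CPM in the parent DMSO libraries and at 1.99, 1.83 and 1.74 CPM with camptothecin. In the knockout it went from 18.02, 20.04 and 22.3 CPM to 1.79, 1.72 and 1.57 CPM. All 6 treated libraries lay below 2 CPM and all 6 control libraries above 18. The log2 changes were -3.50 ± 0.12 (SE) in the parent and -3.57 ± 0.13 in the knockout (edgeR adjusted p = 3.73e-12 and 1.74e-11, n = 3 libraries per group). Their difference was -0.07, with a 95% interval from -0.44 to 0.30 (edgeR adjusted p = 0.883).

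PLK1 (chr16:23688976-23701687), the kinase that drives entry into mitosis, was next. Its parent libraries read 95.4, 79.3 and 80.3 CPM with DMSO and 12.6, 13.1 and 12.8 CPM with camptothecin, and its knockout libraries 78.1, 81.4 and 74.7 CPM against 11.6, 11.3 and 14.4 CPM. The treated groups of both genotypes overlapped each other and lay far below every control. PLK1 fell by 2.73 ± 0.09 and 2.65 ± 0.09 on the log2 scale, a difference of 0.08 with an interval from -0.19 to 0.35 (edgeR adjusted p = 0.786). PSRC1, which binds spindle microtubules, fell by 2.04 and 1.77, and KIF20A, a motor of the dividing cell's midzone, by 1.78 and 1.65. CCNB1, the cyclin that activates CDK1 at mitosis, lay between 187.1 and 196.5 CPM in the 6 control libraries and between 56.5 and 67.1 CPM in the 6 treated ones. HMMR, a spindle protein, read 155.0 CPM in parent DMSO replicate 1 against 101.2 and 104.7 CPM in the other parent controls, and 41.04 to 42.22 CPM with camptothecin. In both lines the camptothecin libraries lay below all controls at each of these genes.

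Genes of mitosis fell nearly as a block. Of 20 mitotic kinases, cyclins and phosphatases, 17 were common falls and 1 a common rise, with a median mean response of -0.70. Of 46 spindle, kinetochore and motor genes, 38 fell and 0 rose (median -0.71), and of 26 anaphase, condensin and cytokinesis genes, 22 fell and 0 rose (median -0.56). These counts stand beside 7.45% common falls and a median of 0.025 over all genes. AURKA, a spindle pole kinase, fell by 1.09 in the parent and 1.48 in the knockout. FAM72B fell by 1.88 and 1.70, although its near-identical copies share reads with it and make it uncertain. BUB1, a spindle checkpoint kinase, fell by 1.23 and 1.06, and CENPE, a kinetochore motor, by 1.16 and 1.53. CDC20, the activator of the anaphase-promoting complex, fell by 1.34 and 1.75, and this difference of -0.41 passed the test (edgeR adjusted p = 0.00515). TOP2A, the topoisomerase that untangles sister chromosomes, lay between 935.2 and 1189 CPM in controls and between 408.2 and 542.3 CPM with camptothecin, and fell by 1.32 and 0.98. CDK1, the kinase that CCNB1 activates, fell by 0.69 and 0.62, and AURKB, which corrects chromosome attachment, by 0.46 and 0.71.

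The member that rose was MASTL, a kinase that protects mitotic phosphorylation, at 0.63 ± 0.10 in the parent and 0.31 ± 0.10 in the knockout (edgeR adjusted p = 7.98e-05 and 0.0395). That call was lost in 9 of 20 alternative settings. MKI67, the proliferation antigen, did not pass on exon reads (-0.62 and -0.33, edgeR adjusted p = 0.0765 and 0.428). Knockout camptothecin replicate 3 read 714.3 CPM for it against 353.3 and 359.7 CPM in the other 2 libraries of the group. On intron reads MKI67 fell in both lines, by 0.84 and 0.59 on the log2 scale. Of 14 G2/M transcription factors and DREAM subunits, 0 were common rises and 3 common falls, namely NFYC, RBL2 and FOXM1. The all-gene shares were 4.79% and 7.45%. FOXM1 fell by 0.42 and 0.20, a call lost in 7 of 20 settings, while MYBL2 stood at -0.15 and 0.09 and passed in neither line.

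The promoters of these genes were read from RefSeq, build GRCh38.p14, since no promoter table of the files' build, hg19, was at hand. Of the 23546 genes tested, 8066 matched a single 300-base window, from 250 bases before the start to 50 after it. Motifs were searched as plain letters on both strands. The CHR, TTTGAA, lay in 10.3% of all 8066 windows, in 17.9% of those of common falls (139 of 778) and in 5.18% of those of common rises (33 of 637). Among mitotic genes that fell it lay in 72.2% (39 of 54), and among the other common falls in 13.8%. The CCAAT box, CCAAT, lay in 37.9% of all windows and in 75.9% of those of mitotic falls (41 of 54). Both motifs together lay in 4.44% of all windows, in 9.51% of those of common falls and in 59.3% of those of mitotic falls (32 of 54). A match is a description of letters and not a bound site.

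The 7 stretches of 120 bases shown here end at the base before the start and show how both motifs are placed in 7 genes that fell. They were chosen after the matches were seen, and mostly for holding a CHR. KIF20A, which fell further than CDC20 on the mean of both lines, has CCAAT boxes and no TTTGAA in its window and is not shown. They are written 5′ to 3′ on the gene's strand, and capitals mark TTTGAA and CCAAT or their reverse complements.
PIF1: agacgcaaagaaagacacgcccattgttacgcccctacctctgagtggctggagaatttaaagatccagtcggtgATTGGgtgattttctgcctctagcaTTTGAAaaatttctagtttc
PLK1: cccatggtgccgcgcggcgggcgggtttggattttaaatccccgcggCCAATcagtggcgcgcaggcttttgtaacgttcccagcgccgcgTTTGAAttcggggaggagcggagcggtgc
CCNB2: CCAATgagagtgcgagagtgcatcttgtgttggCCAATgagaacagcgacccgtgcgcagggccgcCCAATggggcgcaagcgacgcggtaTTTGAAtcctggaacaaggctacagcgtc
CDC20: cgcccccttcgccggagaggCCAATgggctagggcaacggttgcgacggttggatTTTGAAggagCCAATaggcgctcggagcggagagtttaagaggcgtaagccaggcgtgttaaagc
HMMR: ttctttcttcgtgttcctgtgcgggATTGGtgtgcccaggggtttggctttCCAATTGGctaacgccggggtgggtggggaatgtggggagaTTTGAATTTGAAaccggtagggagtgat
CCNB1: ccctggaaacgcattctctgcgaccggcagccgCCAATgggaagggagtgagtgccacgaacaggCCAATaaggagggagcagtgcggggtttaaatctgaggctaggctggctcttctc
PSRC1: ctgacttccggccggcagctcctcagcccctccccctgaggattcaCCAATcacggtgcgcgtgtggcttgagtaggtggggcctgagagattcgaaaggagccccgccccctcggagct
These stretches lie at chr15:64825648-64825767, chr16:23678769-23678888, chr15:59105026-59105145, chr1:43358861-43358980, chr5:163460512-163460631, chr5:69167030-69167149 and chr1:109283146-109283265 in that order (GRCh38.p14), on the minus strand for PIF1 and PSRC1 and on the plus strand for the others. Counting the base before the start as -1, the CHR begins at -20 in PIF1, at -29 in PLK1 and CCNB2, at -65 in CDC20 and at -28 and -22 in HMMR. CCNB1 and PSRC1 hold CCAAT boxes and no TTTGAA in these windows, which says only that these letters are not there. Of the 40 mitotic falls and PIF1 whose window holds a CHR, 22 have one that begins between 40 and 1 bases before the start, a range also set after the positions were seen.

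Among genes of the step before, the G1/S transition and the licensing and copying of DNA, more members were common rises than common falls. Many were neither. Of 51 origin licensing and replication fork genes, 22 were common rises and 2 common falls, with a median mean response of 0.27. Of 17 E2F factors, cyclins E and G1/S regulators, 7 rose and 3 fell (median 0.10). Over all genes tested, 4.79% were common rises and 7.45% common falls. E2F1, the activator that opens S phase, stood at 78.1, 88.6 and 85.2 CPM in parent controls and 184.6, 182.1 and 178.1 CPM with camptothecin. In the knockout it stood at 84.3, 88.03 and 87.1 CPM and then at 153.6, 147.0 and 135.8 CPM. Controls of both lines overlapped, and no treated library came near them. The rise was 1.11 ± 0.06 in the parent and 0.75 ± 0.06 in the knockout, and its difference of -0.36 passed the test (edgeR adjusted p = 0.021).

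The E-type cyclins are partners of CDK2 at the start of S phase. CCNE2 rose from 59.9 to 80.9 CPM in parent controls to 93.5 to 98.2 CPM, and from 79.3 to 80.2 CPM in knockout controls to 162.4 to 176.7 CPM. Its rise of 0.51 in the parent and 1.07 in the knockout differed by 0.56 (edgeR adjusted p = 0.0117). CCNE1 rose by 0.53 and 0.78, a difference that did not pass (interval from -0.01 to 0.50). CDC6 and CDT1, which load the replicative helicase onto origins, rose by 0.85 and 0.58 and by 0.66 and 0.38. GINS2 and GINS3 belong to the helicase itself and rose by 0.38 and 0.50 and by 0.87 and 0.42. MCM4, a subunit of its ring, rose by 0.42 and 0.48, and PCNA, the sliding clamp, by 0.29 and 0.60. PKMYT1, which inhibits CDK1, rose by 0.99 and 0.63.

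The falls on these lists were CDK6, RB1, CCND3, PRIM2 and POLA1. CDK6, RB1, PRIM2 and POLA1 span 178 to 334 kb. On intron reads RB1, the brake on E2F, also fell (-0.46 and -0.29), while PRIM2, the large primase subunit, stood at -0.14 and 0.30 and POLA1, its polymerase partner, at -0.02 and 0.44. Library size alone gave 38 common rises and 2 falls among the 51 replication genes, and the fit without parent DMSO replicate 1 gave 34 and 4.

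The E2F motif, searched as TTTCCCGC or TTTGGCGC on both strands, lay in 3.69% of all promoter windows (298 of 8066) and in 10 of 20 windows of replication and E2F-list genes that rose. Over all common rises the share was 5.02%, and over common falls 3.6%. The 3 promoters shown here were taken because each carries the motif within 40 bases of the start, again chosen after the matches were seen, with the motif in capitals.
E2F1: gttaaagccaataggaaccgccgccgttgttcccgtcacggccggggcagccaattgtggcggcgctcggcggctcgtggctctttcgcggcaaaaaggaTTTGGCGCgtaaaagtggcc
CDT1: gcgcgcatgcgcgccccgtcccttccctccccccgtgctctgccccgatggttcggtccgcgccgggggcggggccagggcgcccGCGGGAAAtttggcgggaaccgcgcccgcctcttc
GINS2: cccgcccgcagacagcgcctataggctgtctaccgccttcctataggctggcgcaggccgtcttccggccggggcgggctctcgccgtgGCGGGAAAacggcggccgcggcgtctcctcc
They lie at chr20:33686386-33686505 (minus strand), chr16:88803669-88803788 (plus) and chr16:85688955-85689074 (minus) of GRCh38.p14.

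The share of common falls grew with the length of the gene. Of 10666 genes under 10 kb from first to last base, 2.34% were common falls. The share was 4.44% at 10 to 30 kb, 8.75% at 30 to 100 kb, 26.2% at 100 to 300 kb and 49.9% (236 of 473) at 300 kb and over. The median mean response ran 0.057, 0.095, 0.008, -0.167 and -0.641 over these classes, and 83.5% of the longest class lay below 0. Both genotypes shared the pattern, with medians in the longest class of -0.76 in the parent and -0.52 in the knockout. In each library, set against the mean of its own controls, that median was -0.715, -0.769 and -0.70 with camptothecin in the parent and -0.56, -0.575 and -0.417 in the knockout. Control libraries lay between -0.04 and 0.066. Across all 23546 genes the rank correlation of span with mean response was -0.13, and neighbouring spans share level and base composition, so it is a description. With library size alone the longest class kept 208 falls and a median of -0.50, and without parent DMSO replicate 1 it had 241 falls and a median of -0.60.

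Intron reads, which come mostly from RNA still being made, showed far less of it. Of 19908 genes tested on intron reads, 637 rose (3.2%) and 1264 fell (6.35%) in both genotypes. The median intron response was 0.005, 0.019, 0.02, 0.028 and -0.048 over the same length classes, and the share of common falls was 3.95%, 6.45%, 7.79%, 6.93% and 7.95%. The longest class held 868 genes on intron reads against 473 on exon reads, so the 2 kinds do not cover the same genes. On introns it had 69 common falls, with a median of -0.144 in the parent and 0.001 in the knockout. Per library, set against the mean of its own controls, that median was -0.156, -0.148 and -0.095 with camptothecin in the parent. In the knockout it was -0.047, -0.034 and 0.163, the last in camptothecin replicate 3, which also had the highest intron share (33.55%). A fit of exon against intron reads within each library then asked whether both kinds changed unequally. Of 17351 genes with both kinds, exon reads fell relative to intron reads in 645 (3.72%) and rose relative to them in 201 (1.16%), in both genotypes. In the longest class 197 of 473 fell relative to introns, 41.6%, with a median of -0.54. Of the 236 long genes whose exon reads fell, 177 also fell relative to introns and 51 fell on intron reads.

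**Figure D3:**
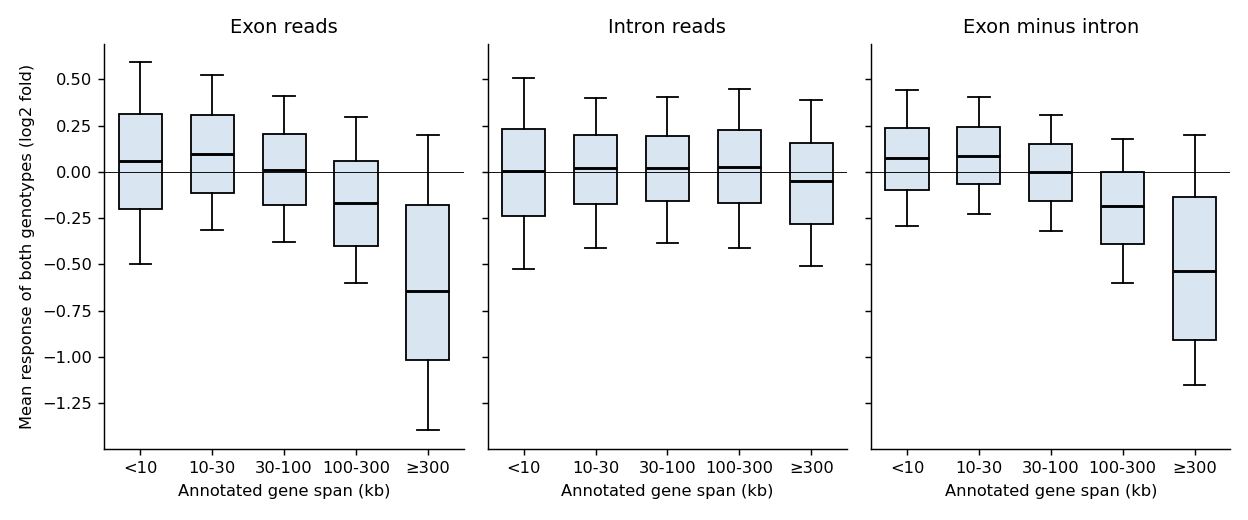
Mean log2 response of exon reads, intron reads and exon minus intron reads by class of gene span in kb. Boxes give the quartiles with the median, and whiskers the 10th to 90th percentile, so that the exon boxes step down from 100 kb on while the intron boxes stay near 0.

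PLCB1 (chr20:8112823-8949002), a phospholipase C that spans 836 kb, shows the pattern in full. Its exon reads went from 76.8, 62.2 and 63.1 CPM to 13.4, 13.9 and 13.7 CPM in the parent, and from 60.8, 63.4 and 60.2 CPM to 14.4, 16.2 and 16.7 CPM in the knockout. Its intron reads went from 1342, 1281 and 1310 to 775.2, 776.5 and 852.8 CPM of intron reads in the parent, and from 1198, 1194 and 1144 to 1003, 1006 and 1227 in the knockout. Exon reads thus separated completely in both lines. Intron reads separated in the parent, and in the knockout only camptothecin replicate 3 overlapped the controls. Exon reads fell by 2.30 and 1.97 on the log2 scale, intron reads stood at -0.71 and -0.13 (edgeR adjusted p = 3.43e-07 and 0.287), and exon reads fell relative to introns by 1.58 and 1.83.

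PTPRD, a receptor phosphatase of 2298 kb, fell by 2.23 and 1.64 on exon reads, against -0.77 and -0.19 on introns, and its exon fall was smaller in the knockout by 0.58 (edgeR adjusted p = 0.0199). CDK6, the kinase that pairs with D-type cyclins, spans 232 kb. It fell from 1519 to 1781 CPM in the 6 controls to 583.3 to 831.1 CPM in the 6 treated libraries, while its intron reads stood at -0.18 and 0.17. TOX, a factor of T cell development that spans 314 kb, fell by 1.9996 and 1.54 on exon reads with introns at -0.80 and -0.02. UBE2E2, a ubiquitin-conjugating enzyme of 389 kb, fell by 1.63 and 1.24 with introns at -0.27 and 0.17. ST6GALNAC3, a sialyltransferase of 560 kb, stood at -2.36 and -1.504 and fell from low levels, at most 5.15 CPM. NLGN4X, a synaptic adhesion gene of 388 kb, fell by 1.87 and 1.76 on exon reads and by 0.80 and 0.44 on introns, and shares reads with its near-identical copy NLGN4Y, also a common fall. The long noncoding gene CCDC26 (329 kb) fell by 2.03 and 1.79 on exon reads and by 1.22 and 0.67 on introns. In total gene reads, which add introns to exons, PLCB1, TOX, UBE2E2, ST6GALNAC3, PRIM2 and POLA1 were no longer common falls, and CMSS1 (361 kb) moved from -1.06 to 0.023.

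Only 2 genes of at least 300 kb were common rises on exon reads, PCDH9 and C2orf88, named after their values were seen. PCDH9, a protocadherin of 928 kb, lay between 26.5 and 34.5 CPM in parent controls and between 49.2 and 52.5 CPM with camptothecin, and between 27.7 and 31.6 CPM and then 36.1 and 39.4 CPM in the knockout, with intron reads at 0.16 and 0.05. C2orf88 rose by 0.42 and 0.45, and in total gene reads its mean response was -0.041. In the other direction, 14 genes fell on exon reads and rose on intron reads. SIPA1L1, a GTPase-activating protein gene of 421 kb, fell by 0.87 and 0.75 on exon reads and rose by 0.35 and 0.29 on intron reads. The cap methyltransferase gene RNMT alone did the reverse, with exon reads at 0.31 and 0.22 and intron reads at -0.29 in both lines, and its exon call was lost in 6 of 20 settings.

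A second set of genes fell further on introns than on exons. Of 1264 common falls on intron reads, 595 in genes tested on both kinds were no common fall on exon reads. Missing a call on exons does not itself show a larger intron fall. In 72 of these genes, exon reads rose relative to introns. Heat shock and chaperone genes fell on both kinds. Of 22 tested on exon reads 10 fell and 0 rose (median -0.47), beside 7.45% common falls over all genes. Of 18 tested on intron reads 13 fell and 0 rose (median -1.06), beside 6.35%. In 9 of these 18, exon reads rose relative to introns, beside 1.16% over all genes.

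HSP90AA1 (chr14:102547074-102606035) encodes the inducible cytosolic HSP90. Its intron reads fell from 394.3, 331.7 and 325.1 to 90.1, 88.7 and 87.6 CPM of intron reads in the parent, and from 218.2, 201.2 and 209.2 to 78.3, 77.9 and 78.3 in the knockout. Its exon reads went from 2991, 2081 and 2137 to 1448, 1473 and 1502 CPM in the parent, and from 2382, 2286 and 2343 to 1904, 1897 and 2153 CPM in the knockout. Both kinds separated in both lines, the introns by a far wider gap, although the knockout exon change of -0.24 did not pass (edgeR adjusted p = 0.16). The intron changes were -1.98 ± 0.07 and -1.42 ± 0.07, and each intron read was matched by 14.7 to 20.3 exon reads in parent controls and 38.9 to 40.1 with camptothecin, and by 26.5 to 27.7 and 56.6 to 58.5 in the knockout. HSPH1, an HSP70 partner, fell on introns by 2.12 and 1.42 and on exons by 0.64 and 0.30. HSPA8, the constitutive HSP70, passed in both lines on intron reads (-1.10 and -0.89) but on exon reads only in the parent (-0.83 and -0.03, a difference of 0.80, edgeR adjusted p = 0.0118). Its parent DMSO replicate 1 read 4801 CPM against 3140 and 3136 in the others. DNAJB1, the HSP40 that works with them, fell by 1.31 and 0.97 on exon reads and by 1.44 and 1.46 on intron reads. Its change of exon relative to intron reads, 0.14 and 0.49, passed only in the knockout.

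HSPA6, a strictly inducible HSP70, fell from 8.36 to 9.68 CPM to 1.36 to 1.94 CPM in the parent and from 6.56 to 8.50 CPM to 0.585 to 0.760 CPM in the knockout. It shares reads with near-identical copies, had no value on exon reads unique to the gene, and is uncertain, as are HSPA1A, HSPA1B and HSPA1L. The core of the heat shock element, searched as GAANNTTC on both strands, lay in 4.76% of all promoter windows, in 5.66% of those of common falls and in 5 of 7 windows of heat shock genes that fell. HSPA6 is shown because its fall was the largest of these, with the match in capitals, at chr1:161524420-161524539 on the plus strand of GRCh38.p14.
HSPA6: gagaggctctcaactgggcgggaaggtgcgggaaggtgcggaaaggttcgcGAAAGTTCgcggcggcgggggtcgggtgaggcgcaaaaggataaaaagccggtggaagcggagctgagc

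Hypoxia and glycolysis genes, targets of HIF-1, also fell further on introns. Of 22, 12 fell and 0 rose on exon reads (median -0.43), and of 21 tested on introns 15 fell and 0 rose (median -0.87). All genes gave 7.45% common falls and 4.79% common rises on exons, and 6.35% and 3.2% on introns. ADM, the vasodilator peptide adrenomedullin, fell from 4.55 to 5.72 CPM to 0.788 to 1.25 CPM in the parent and from 5.32 to 6.52 CPM to 1.42 to 1.85 CPM in the knockout. PGK1, a glycolytic kinase, fell by 0.54 and 0.31 on exons and by 1.65 and 1.30 on introns. PFKFB4, a regulator of glycolysis, stood at -0.05 and -0.10 on exons, where treated and control libraries overlapped in both lines, and fell by 1.8017 and 1.42 on introns. BNIP3, a mitophagy receptor, fell by 0.95 and 0.91 on exons and by 1.58 and 1.51 on introns. Of 19 cholesterol synthesis genes, 9 fell on introns and 0 rose, while on exon reads 4 fell and 1 rose. In 11 of the 19, exon reads rose relative to introns, beside 1.16% over all genes. On exon reads 3 of these genes fell and 4 rose with library size alone. BST2, an interferon-induced membrane protein, fell on introns by 1.71 and 1.74, from counts of 3.18 to 5.83 CPM of intron reads in controls.

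**Figure D4:**
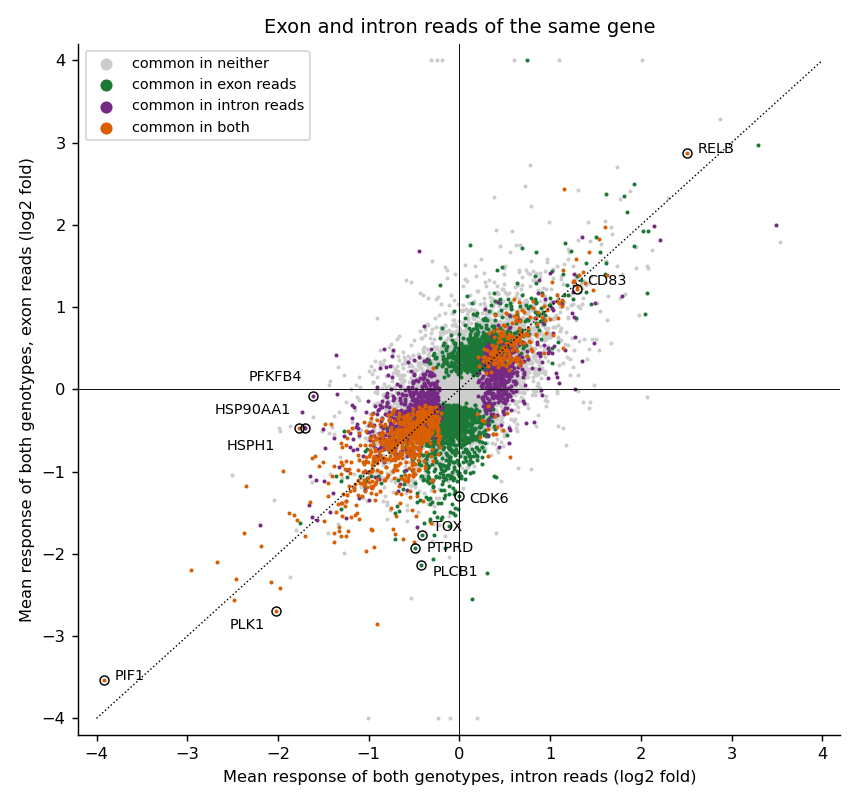
Mean log2 response of exon reads (vertical axis) against that of intron reads (horizontal axis) for the 17351 genes tested on both. Values beyond 4 are drawn at the edge. Long genes such as PLCB1 sit below the diagonal with introns nearer 0. Chaperone and glycolysis genes such as HSPH1 and PFKFB4 sit above it with exons nearer 0.

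Of 826 genes that were common changes on both kinds of reads, 811 went the same way and 15 opposite ways. Of 1667 common exon falls tested on introns, 626 were common falls there too, and of 1055 common exon rises 185 were common rises. PIF1 had the largest fall on introns as on exons, by 3.94 and 3.89. It was followed by 4 noncoding genes, CTD-2196E14.5 (-2.63 and -2.72), AC008174.3 (-3.77 and -2.49), AC018799.1 (-2.45 and -3.01) and CTD-2252P21.1 (-2.85 and -2.35). The first and second of these had no value on intron reads unique to the gene. CTD-2196E14.5 (chr16:23698369-23699664) lies wholly within PLK1, so its reads cannot be told apart from those of PLK1. The common rises named by the same ranking were RELB, CTTN, SDC3, MB21D2 and NEU4, of which SDC3, a heparan sulfate proteoglycan, rose by 1.36 and 1.35. MB21D2 rose by 1.66 and 1.29 on introns and by 1.11 and 1.32 on exons. CTTN, which binds cortical actin, rose by 1.62 and 1.35 on introns, from at most 1.604 CPM of intron reads in controls. NEU4, a sialidase, rose by 5.72 and 1.26 on introns, while on exon reads it passed only in the parent.

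IL8, RELB and CD83, which belong to NF-kappaB signalling, were among the 10 common rises ranked highest by the smaller of both changes. Of 23 subunits, inhibitors and targets, 8 rose and 0 fell in both lines, beside 4.79% and 7.45% over all genes. Their median mean response was 0.60. That median hides unequal sizes, 1.20 in the parent and 0.14 in the knockout. In the parent 21 of the 23 rose, beside 16.8% of all genes. RELB (chr19:45504687-45541451), the subunit of the non-canonical pathway, went from 1.94, 2.54 and 3.38 CPM to 46.7, 47.2 and 43.7 CPM in the parent. In the knockout it went from 2.96, 3.31 and 3.20 CPM to 10.5, 8.62 and 8.94 CPM. Controls of both lines overlapped, and the treated knockout libraries lay between them and the treated parent libraries. The rises of 4.17 ± 0.15 and 1.57 ± 0.15 differed by -2.60 (edgeR adjusted p = 3.26e-07). NFKB2, its partner, rose by 3.003 and 0.95, and NFKBIA, the inhibitor that NF-kappaB itself induces, by 1.71 and 0.49, both with a tested difference.

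IL8, a neutrophil chemokine, rose from 0.714, 0.573 and 0.668 CPM to 9.20, 8.88 and 8.63 CPM in the parent. In the knockout it rose from 0, 0.158 and 0.209 CPM to 0.610, 0.507 and 0.522 CPM, so that treated knockout cells stood near untreated parent cells. Its rises of 3.76 and 2.18 on the log2 scale differed by -1.58, which did not pass (edgeR adjusted p = 0.126). CD83, a surface protein of activated lymphocytes, rose on exon reads by near the same size in both lines. It went from 16.2 to 19.4 CPM to 40.9 to 41.8 CPM in the parent, and from 11 to 12.2 CPM to 23.7 to 29.2 CPM in the knockout. Its rises of 1.25 and 1.20 differed by -0.05, with an interval from -0.31 to 0.21. On intron reads its rises of 1.55 and 1.04 differed by -0.52, which passed (edgeR adjusted p = 0.00803). F3, the tissue factor that starts coagulation, is not on the list. On exon reads it rose by 1.39 and 1.40 with an interval of the difference from -0.62 to 0.62. With library size alone 13 members of the list were common rises. On intron reads 4 of the 23 were common rises and 1 a common fall, beside 3.2% and 6.35% over all genes. IL8 (5.25 and 1.34) and NFKBIA (2.08 and 0.42) passed there only in the parent.

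Other strong common rises fell outside the fixed lists. FGFR3, a growth factor receptor, rose by 1.84 and 1.33, ITPKA, an inositol phosphate kinase, by 2.37 and 1.28, and the adhesion gene CDH24 by 1.17 and 1.12. ZCCHC24 rose by 1.39 and 1.22, a call lost on exon reads unique to the gene. BAIAP2, an actin regulator, rose by 2.25 and 1.11, a difference of -1.14 (edgeR adjusted p = 0.0403). Each of these stood at or below 5.11 CPM in every control library. On intron reads BAIAP2 passed only in the parent (2.26 and 0.21). IL6ST, the shared receptor chain of IL-6 cytokines, rose by 0.86 and 1.69 on exon reads, yet its mean response was -0.139 in total gene reads. Its exon reads rose relative to introns by 1.24 and 1.74, a mean that was 0.195 on reads unique to the gene.

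CDKN1A (chr6:36644304-36655115), the CDK inhibitor p21, was the largest rise among the p53 target genes. It went from 1.28, 2.14 and 2.48 CPM to 21.7, 22.9 and 22.1 CPM in the parent and from 6.30, 7.92 and 7.04 CPM to 15.95, 17.6 and 13.3 CPM in the knockout. The knockout controls were already above the parent controls, and treated knockout libraries stayed below treated parent libraries. The rises of 3.56 and 1.14 differed by -2.42 (edgeR adjusted p = 1.56e-05). Of 24 genes known as p53 targets, 4 rose in both lines and 0 fell, with a median of 0.29, beside 4.79% common rises over all genes. The others were SESN2, a stress-induced inhibitor of mTORC1 (1.45 and 0.47), AEN, a nuclease of apoptosis (0.84 and 0.38), and PLK3 (1.76 and 0.23), whose call was lost in 9 of 20 settings. BBC3, the death gene PUMA, passed only in the parent (3.45 and 0.64, edgeR adjusted p = 0.0954 in the knockout). DESeq2 called 7 common rises on this list, library size alone 12, and the fit without parent DMSO replicate 1 called 6.

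Of 16 BCL2 family genes, 2 rose and 1 fell, beside 4.79% common rises and 7.45% common falls over all genes. BCL2L11, the death gene BIM, stood at 4.998, 7.01 and 4.55 CPM in parent controls and 9.19, 10.5 and 10.6 CPM with camptothecin. In the knockout it went from 7.25, 7.51 and 7.17 CPM to 12.3, 11.1 and 17.1 CPM. No control reached the lowest treated library of its line, and the rises of 0.87 and 0.88 differed by 0.01, with an interval from -0.48 to 0.50. BMF, another BH3-only gene, rose by 1.43 and 1.66 from levels of at most 0.585 CPM, and BCL2L1, the survival gene BCL-XL, fell by 0.44 and 0.29. Scaled by library size alone, 5 members rose and 0 fell.

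Immediate early genes were mostly a parent response. Of 44, 40 rose in the parent and 15 in the knockout, 14 were common rises and 1, the phosphatase gene DUSP6, was a common fall. Their median was 2.15 in the parent and 0.325 in the knockout, and the test of the difference passed for 37 of 44. All genes tested gave 16.8% rises in the parent and 7.3% in the knockout. They gave 4.79% common rises, 7.45% common falls and 6.32% differences. JUN, a subunit of AP-1, went from 42.3 to 48.5 CPM to 631.0 to 670.2 CPM in the parent and from 56.9 to 59.2 CPM to 65.5 to 66.9 CPM in the knockout. Its knockout rise of 0.19 (edgeR adjusted p = 0.0414) was lost in 11 of 20 settings. EGR1 rose by 3.82 and 0.50, DUSP4 by 4.27 and 0.74, and JUND by 2.30 and 0.35, each with a tested difference. DUSP6, which switches off ERK, fell by 0.50 and 0.47. Without parent DMSO replicate 1 the list held 21 common rises, and with library size alone 23. Of 31 members tested on intron reads, 2 were common rises and 1 a common fall, beside 3.2% and 6.35% over all genes.

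Of 37 genes of T lymphoblast identity, 20 were common falls and 0 common rises, beside 7.45% and 4.79% over all genes. Their median was -0.38. TOX, described with the long genes, fell most. LEF1, a factor of Wnt signalling in thymocytes, went from 342.2 to 433.8 CPM to 156.9 to 164.1 CPM in the parent and from 356.2 to 361.9 CPM to 184.3 to 189.4 CPM in the knockout. DNTT, the template-free polymerase of receptor rearrangement, fell by 1.16 and 0.96, and IKZF1, the lymphoid factor Ikaros, by 1.23 and 0.86. CD1A, which presents lipids on cortical thymocytes, stood higher in knockout controls (101.5 to 102.0 CPM) than in parent controls (38.6 to 48.4 CPM) and fell by 1.09 in the parent and 0.76 in the knockout. Its relatives CD1B, CD1C, CD1D and CD1E were common falls as well. RUNX3 passed only in the parent, upward (1.54, against 0.39 in the knockout). In bulk RNA, fewer cells of a type and less RNA per cell cannot be told apart.

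Markers of other lineages were measured beside these. The summed level of the 17 T-lineage markers was 2500 to 2690 CPM in parent controls and 1770 to 1800 with camptothecin, and 2900 to 2930 and 2290 to 2340 CPM in the knockout. The 8 B-lineage markers measured summed to 49.8 to 50.4 and 33.6 to 35.7 CPM, and to 54.5 to 57.6 and 47.0 to 53.6 CPM, with VPREB1 and IGLL1 as common falls. Myeloid markers summed to 3.96 to 5.28 CPM over all 12 libraries and had 0 common calls, as had the erythroid, epithelial and fibroblast markers. B-lineage sums were thus lower with camptothecin in both lines, as the T-lineage sums were, and their part in the result was not tested.

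Of 28 topoisomerases and TOP1 lesion repair genes, 2 rose and 7 fell in both lines (median -0.07). Over all genes tested, 4.79% were common rises and 7.45% common falls. Without parent DMSO replicate 1 the topoisomerase list held 6 rises and 7 falls, and with library size alone 6 and 2. TOP1, the target of the drug, did not pass (-0.30 and -0.03, edgeR adjusted p = 0.422 and 0.958). It read 79.8 to 112.9 CPM in parent controls and 69.6 to 84.7 CPM with camptothecin, and in the knockout 83.8 to 92.8 CPM against 68.5, 62.1 and 126.4 CPM, the last in knockout camptothecin replicate 3. TDP1, which cleaves trapped TOP1 from DNA, fell by 0.83 and 0.48, and TOP2B, the topoisomerase II of resting cells, by 0.61 and 0.42. TOP3A rose by 0.60 and 0.19, a call lost in 11 of 20 settings. Of 19 checkpoint kinases and partners 2 rose and 4 fell, among them ATM, the kinase of double-strand breaks (-0.68 and -0.50), and CHEK2, its effector (-0.45 and -0.33). Of 31 homologous recombination and Fanconi anemia genes 6 rose and 1 fell, with EXO1, which resects DNA ends, at 0.56 and 0.47. Without parent DMSO replicate 1 the checkpoint list held 5 rises and 5 falls and the recombination list 12 and 3, and with library size alone they held 5 and 1, and 11 and 0. SLFN11 itself did not pass (0.10 and 0.05).

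Over all genes tested, 4.79% were common rises and 7.45% common falls. Among the remaining lists, 4 of 24 interferon-stimulated genes rose and 0 fell, led by IRF7 (1.99 and 0.98), the factor of type I interferon induction. Of 28 P-TEFb and elongation genes 4 rose and 1 fell, with HEXIM1, the inhibitor of P-TEFb, at 1.68 and 0.32. Of 36 cytosolic ribosomal protein genes 0 were common calls, at a median of -0.17, although 21 fell in the parent, and 6 were common falls without parent DMSO replicate 1. With library size alone the interferon list held 7 rises and the P-TEFb list 9, and without parent DMSO replicate 1 each held 6 rises and 2 falls.

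**Figure D5:**
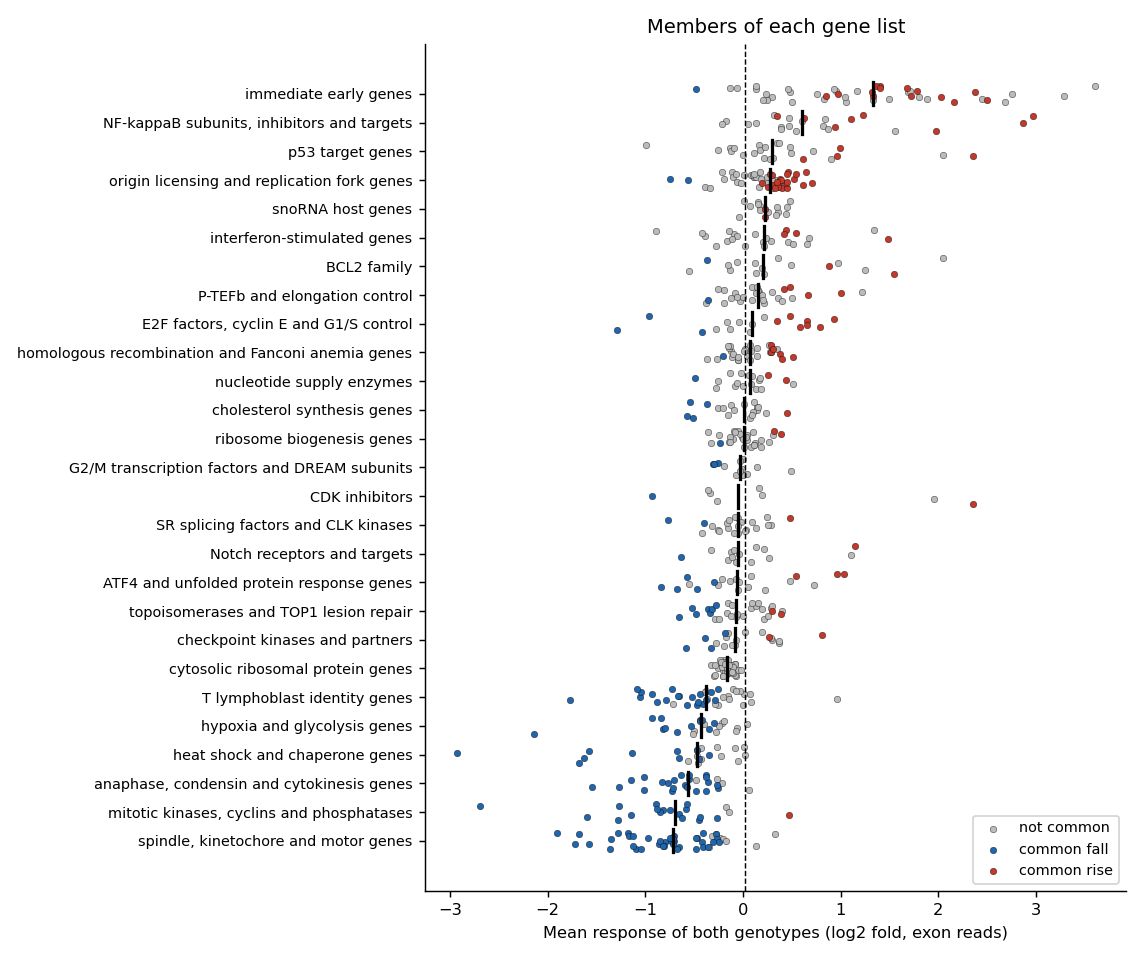
Mean log2 response of exon reads for the members of each gene list, 1 point per gene, with a vertical tick at the list median, a dashed line at the median of all genes (0.025) and values drawn at the edge beyond -3.2 and 3.6. Histone, mitochondrial and other-lineage marker lists are not drawn. The 3 mitotic lists lie almost wholly left of the line and the immediate early list mostly right of it.

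A smaller set of 69 genes passed in both lines in opposite directions, 61 of them up in the parent and down in the knockout, and 29 of the 69 were HIST genes. Of 58 replication-dependent histone genes, which are transcribed in S phase, 23 rose in the parent, 54 fell in the knockout and 3 were common falls. Their median was 0.20 in the parent and -1.39 in the knockout. All genes tested gave 16.8% rises in the parent, 9.28% falls in the knockout and 7.45% common falls. HIST2H2AA3 went from 1245, 1494 and 1483 CPM to 3415, 3539 and 3183 CPM in the parent and from 1434, 1451 and 1496 CPM to 529.6, 526.0 and 462.2 CPM in the knockout. Controls overlapped and the treated groups lay on opposite sides of them, a difference of -2.79 (edgeR adjusted p = 8.67e-11). HIST2H2AA4 is its near-identical copy, and single histone genes are uncertain for that reason. The mitochondrial ribosomal RNA genes MT-RNR1 and MT-RNR2 stood at 0.56 and 0.52 in the parent and at -3.11 and -2.16 in the knockout, and passed in neither line. Their part in the histone values was not tested. HIST1H1T, a linker histone, stood at 0.9988 and -1.93. ARHGEF12 fell by 1.09 in the parent from 4.65 to 6.29 CPM, and its knockout change of 3.16 rests on levels of at most 0.174 CPM.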

How the data were processed

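Total RNA of 12 CCRF-CEM libraries was sequenced in 1 paired-end run, per the labels' protocols. The authors deposited read counts of exons and introns for each gene, and TPM values, which were not used. The tools named are STAR 2.5.4a, Picard 2.9.2, Trimmomatic 0.39 and Trim Galore 0.6.2, with build hg19, per the submitters' processing notes, which state no roles. The strand setting, annotation and counter were not given in the sources used here. Overlapping genes therefore cannot be told apart in the main fits. Fits on reads unique to a gene resolve this only in part. Tables were joined over 43828 gene places, a missing gene counting as 0, and up to 32 pseudoautosomal Y copies per table were left out. Counts were filtered, TMM-scaled and fitted over all 4 groups with edgeR 4.0.16 (quasi-likelihood, limma 3.58.1, R 4.3.3). The mean response, each response and their difference were tested with Benjamini-Hochberg adjustment at 0.05. The exon minus intron fit tested both kinds of count within a library. The SE is the log2 change divided by the root of F, and CPM are read counts scaled by TMM-adjusted library size. The depth of each library, at least 42439957 exon reads, leaves low genes the least precise. DESeq2 1.42.0 was an alternative. In simulated data, 50 well-covered genes were changed at each size, by the same amount in both lines, with the same spread for all genes. There, log2 changes of 1 were recovered as common for 100% of genes on exon reads. For exon minus intron the recovery was 88% at 1 and 78% at -1, and the pass mark of that check was lowered to take these in. Changes of 0.5 were recovered for 14% and 2%. Far fewer genes were changed there than were called in the real data, which makes the adjustment stricter. These shares are therefore not the sensitivity of the real fits.

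Named genes were the 10 largest common exon rises and falls, ranked by the smaller of both changes among genes of at least 1 mean CPM whose libraries did not overlap, with 5 each way for introns and for exon minus intron, 4 opposite genes, up to 4 per list, TOP1 and SLFN11. Other genes were named after their values were seen. The members and all gene lists were chosen with earlier results of these data known.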

Additional observations from a re-analysis of the deposited data

Results flagged for a closer look

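For the genes named here, edgeR's quasi-likelihood test of the difference between the responses passed, and the value given is the knockout response minus the parent response on the log2 scale, from exon reads. The difference was above 0 for ARHGEF12 (4.24), BST2 (0.41), CCNE2 (0.56), HSPA8 (0.8), IKZF1 (0.37), PCNA (0.31), PTPRD (0.58) and TOX (0.46). It was below 0 for BAIAP2 (-1.14), BBC3 (-2.8), CDC20 (-0.41), CDC25C (-0.67), CDKN1A (-2.42), DUSP4 (-3.53), E2F1 (-0.36), E2F2 (-0.57), EGR1 (-3.33), GINS3 (-0.45), HEXIM1 (-1.36), HIST1H1T (-2.92) and HIST2H2AA3 (-2.79). It was also below 0 for HIST2H2AA4 (-2.81), HSPA6 (-1.05), IRF7 (-1.01), JUN (-3.67), JUND (-1.95), NEU4 (-4.66), NFKB2 (-2.05), NFKBIA (-1.22), PLK3 (-1.53), RELB (-2.6), RUNX3 (-1.15), SESN2 (-0.98) and TOP3A (-0.41). ARHGEF12 and NEU4 rest on knockout levels near 0 CPM.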

How the results depend on the processing

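Counts of calls moved with the scaling, the call rule and parent DMSO replicate 1. With library size alone the mean exon response had 7519 rises and 2521 falls, the knockout response 4693 and 1274, and the common response 3131 and 1030. The same setting gave 5480 and 2045 calls for the mean intron response, 1418 and 788 for the common intron response, and 860 genes with a higher knockout response. The all-gene median of the intron response moved from 0.015 to 0.121. Counting genes whose mean response passed with the same sign in both lines gave 4196 and 4178 on exons and 2867 and 3141 on introns. Fitting only the groups compared gave 2762 knockout rises. Genes with a higher knockout response numbered 778 with no filter, 817 with DESeq2 and 781 in total gene reads.

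Leaving out 1 library at a time gave 3873 to 5374 mean exon rises and 3795 to 4824 falls, 3142 to 4609 and 3249 to 4224 in the parent, 945 to 3157 and 1537 to 3483 in the knockout, and 685 to 1976 and 1277 to 2463 for the common response. It gave 179 to 1241 genes with a higher and 720 to 2262 with a lower knockout response. On introns it gave 2603 to 3503 and 2845 to 3586 for the mean response and 423 to 828 and 934 to 1599 for the common one. For exon minus intron it gave 92 to 475 rises and 442 to 839 falls. Each highest count was without parent DMSO replicate 1, and the cause was not tested.

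The mean response changed sign with library size alone for PFKFB4 (0.061), HIST2H2AA4 (0.014), HIST2H2AA3 (0.002) and MYBL2 (0.112). In total gene reads it did so for IL6ST (-0.139), CMSS1 (0.023), MYBL2 (0.059) and C2orf88 (-0.041), and without parent DMSO replicate 1 for MYBL2 (0.032, the highest of a range from -0.06 over single libraries left out). Libraries of the same replicate number did not deviate together (correlations across genes from -0.032 to 0.043), and with a replicate block the calls were 1073 for common response, exon reads, rises and 1720 for common response, exon reads, falls. Depth limits genes below about 1 CPM.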
